A study of Mus musculus with 15 samples.

Results

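The proteasome is the barrel-shaped protease that degrades most ubiquitin-tagged proteins of a cell, and its subunits and assembly factors are described here across the 2 aortic segments and 2 diets of a mouse study. Members were all genes whose symbol reads Psm, then a letter from a to g, then a digit, each taken from the brightest probe set that names only that gene. This gave 49 of the 22180 genes measured. Of these, 47 act in or on the proteasome. The others are Psmc3ip, a gene of meiotic recombination that carries a proteasome symbol only by name, and Psme3ip1, whose product binds the activator Psme3. Psma4, an alpha subunit, lies only on probe sets that name several genes and has no value here.

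The study used total RNA of aorta from mice of the inbred strain DBA/2NCrl, 8 weeks old at the start and fed for 5 days. The high-phosphate diet (HPD) held 20.2 g of phosphorus per kg and the standard chow diet (SCD) 7 g per kg. The 15 arrays fall into thoracic aorta on HPD (n = 3), thoracic aorta on SCD (n = 4), abdominal aorta on HPD (n = 4) and abdominal aorta on SCD (n = 4). The labels call them biological replicates and leave unsaid if 1 mouse gave both segments and how the vessels were cleaned of surrounding tissue. Levels below are log2 intensities as deposited, and differences are on the log2 scale with the standard error (SE) of a linear model (limma). A gene was called changed at an adjusted p under 0.05 over all genes.

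In the core particle, rings of alpha subunits (Psma genes) gate a chamber lined by beta subunits (Psmb genes). Psmb6, Psmb7 and Psmb5 carry the proteolytic sites. Interferon induces Psmb9, Psmb10 and Psmb8, which immune cells also carry, and these take the places of Psmb6, Psmb7 and Psmb5 and favour peptides that fit MHC class I molecules. The regulatory particle holds the ATPases that unfold substrates (Psmc genes) and the subunits that bind and remove ubiquitin (most Psmd genes). Psme genes encode alternative activators, Psmf1 an inhibitor, and Psmg genes with Psmd5, Psmd9 and Psmd10 the chaperones of assembly. Cells whose proteasomes are impaired raise the subunit genes together through the transcription factor Nfe2l1, which binds antioxidant response elements.

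The promoters of 2 standard and 2 immune catalytic subunits are shown because the report turns on these genes. The windows run from 250 bases before to 50 bases after the gene's start, 5' to 3' along the gene, from RefSeq (GRCm38.p6), and 41 of the 49 members have one. Psmb5 lies at chr14:54617946-54618245 on the minus strand, Psmb6 at chr11:70525107-70525406 on the plus strand, Psmb8 at chr17:34197945-34198244 on the plus strand and Psmb9 at chr17:34187281-34187580 on the minus strand. Capitals mark the core of an antioxidant response element (TGACNNNGC) in the standard genes and a gamma-activated site (TTCNNNGAA) in Psmb8. N stands for any base, and both strands were searched.
Psmb5: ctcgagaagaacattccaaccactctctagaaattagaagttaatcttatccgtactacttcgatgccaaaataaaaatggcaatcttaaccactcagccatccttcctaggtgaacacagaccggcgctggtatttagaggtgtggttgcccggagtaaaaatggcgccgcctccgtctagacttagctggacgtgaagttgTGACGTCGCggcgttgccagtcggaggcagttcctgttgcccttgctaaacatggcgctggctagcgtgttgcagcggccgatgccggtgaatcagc
Psmb6: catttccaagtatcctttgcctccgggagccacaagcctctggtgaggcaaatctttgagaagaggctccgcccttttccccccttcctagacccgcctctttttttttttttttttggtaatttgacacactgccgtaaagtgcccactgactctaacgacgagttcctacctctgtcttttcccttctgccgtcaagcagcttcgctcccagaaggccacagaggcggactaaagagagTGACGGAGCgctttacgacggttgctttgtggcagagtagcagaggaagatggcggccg
Psmb8: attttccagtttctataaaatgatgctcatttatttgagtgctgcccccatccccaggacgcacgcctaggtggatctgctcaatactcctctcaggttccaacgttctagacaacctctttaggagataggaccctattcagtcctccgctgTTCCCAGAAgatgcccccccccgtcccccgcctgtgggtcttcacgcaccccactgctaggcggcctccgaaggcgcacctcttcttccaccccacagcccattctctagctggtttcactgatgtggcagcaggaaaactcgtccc
Psmb9: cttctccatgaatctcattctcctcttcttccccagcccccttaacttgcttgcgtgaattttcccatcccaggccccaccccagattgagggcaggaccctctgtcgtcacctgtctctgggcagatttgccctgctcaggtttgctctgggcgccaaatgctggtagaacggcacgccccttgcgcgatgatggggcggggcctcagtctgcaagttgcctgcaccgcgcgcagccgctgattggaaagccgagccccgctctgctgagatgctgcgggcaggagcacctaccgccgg
In Psmb5 the antioxidant core TGACGTCGC lay at bases -47 to -39 from the start, and in Psmb6 the core TGACGGAGC lay at -9 to -1. In Psmb8 the gamma-activated site TTCCCAGAA lay at -97 to -89. The antioxidant core was in a window of 6 of 41 members (14.6%) and of 14% of all genes with windows, so these letters are common. The gamma-activated site was in a window of 3 of 41 members (7.32%) and of 9.55% of all genes. The core of an interferon-type element (GAAANNGAA) was in a window of 7 of 41 members (17.1%) and of 9.76% of all genes. None of the 3 motifs was found in the windows of Psmb9 and Psmb10, which says only that these letters are not in these windows.

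Levels of cell type markers differed between arrays, and the source of these signals was not tested. Mean log2 levels of 8 smooth muscle markers were 9.18 to 9.5 in thoracic and 8.2 to 8.95 in abdominal arrays, above array medians of 5.778 to 5.84. The mean of 17 of 20 listed T, NK and B cell markers was 7.39 to 8.18 in abdominal HPD arrays 1, 2 and 4 and abdominal SCD arrays 2 and 4, and 5.57 to 6.13 in the other arrays. Hepatocyte markers (12 of 12 measured) averaged 8.66 and 10.66 in abdominal HPD arrays 3 and 4 and 6.78 in thoracic SCD array 4, against 5.44 to 6.15 in the others.

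Levels of the members were stable within groups. Their median SD within groups was 0.1, against 0.155 over all genes. The most variable were Psma5, an alpha subunit on a dim probe set (SD 0.314), and Psmb9 (SD 0.311). Mean levels ran between 4.84 for Psma5 and 11.29 for Psmc2, an ATPase. Psma5, Psma8 (an alpha subunit of the testis) and Psmb11 (the catalytic subunit of the thymus) fell below the 30th percentile of all genes in level, so little can be read from them.

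In abdominal aorta, 2 of the 3 standard catalytic subunits, Psmb5 and Psmb6, were slightly lower on HPD, and no other member was called. Psmb5 (probe set 17306417), the chymotrypsin-like subunit, had 9.39, 9.38, 9.5 and 9.37 on HPD, against 9.83, 9.6, 9.73 and 9.78 on SCD. All 4 HPD arrays lay below all 4 SCD arrays. The difference was -0.32 ± 0.074 (adjusted p = 0.0137), 1.25-fold lower. Psmb6 (probe set 17252070), the caspase-like subunit, had 8.39, 8.34, 8.4 and 8.29 on HPD, against 8.67, 8.52, 8.52 and 8.57 on SCD. Again the groups did not overlap. It fell by 0.22 ± 0.058 (adjusted p = 0.0363), 1.16-fold. Psmb7 (probe set 17384693), the trypsin-like subunit, had 10.55, 10.47, 10.53 and 10.46 on HPD, against 10.76, 10.66, 10.73 and 10.68 on SCD. Its groups did not overlap either, but at -0.20 ± 0.06 it missed the threshold (adjusted p = 0.0554). How many of all genes separate the diets without overlap was not counted, so separation alone sets no gene apart. Psmb7 was called with the replicate block (adjusted p = 0.0448), with array weights (0.0483), without dim genes (0.0383) and without thoracic HPD array 1 or 2 or thoracic SCD array 3. It was not called with only the groups compared, under quantile normalization or with the lymphocyte mean as a covariate. With the brown adipocyte mean as a covariate it stood at 0.000292 and was not called either.

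Across the members, 0 of 49 were called higher in abdominal aorta on HPD and 2 (4.08%) lower, beside 1.95% of all genes called higher and 5.06% called lower. The share lower is thus near the background. At an unadjusted p under 0.05, 11 of 49 members were lower and 0 higher. Of all 22180 genes 2625 were lower and 1818 higher (20% in either direction). The median difference of the members was -0.06, with 34 of 49 below 0 (69.4%), against -0.01 and 51.9% over all genes. That median was 0.000292, with 24 of 49 below 0, with the mean of brown adipocyte markers as a covariate, -0.0278 without the 5 lymphocyte-rich arrays and -0.039 without abdominal HPD array 4. Below 0 lay 10 of 11 regulatory non-ATPase subunits (median -0.08), 4 of 4 non-catalytic beta subunits (median -0.08), 5 of 7 assembly chaperones (median -0.14) and 3 of 4 activators. The ATPases divided evenly, 3 above and 3 below 0, with a median of 0.01. Of the 7 alpha subunits 4 lay below 0 (median -0.03). All 3 immune subunits and the inhibitor Psmf1 lay above 0. Psma1, an alpha subunit, and Psmd10, a chaperone of the ATPase ring, had groups that did not overlap, at -0.23 ± 0.078 (adjusted p = 0.0957) and -0.23 ± 0.078 (adjusted p = 0.101). The 95% interval of the diet difference lay within 0.5 either way, a 1.41-fold change, for 48 of 49 members, against 74.5% of all genes.

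**Figure D1:**
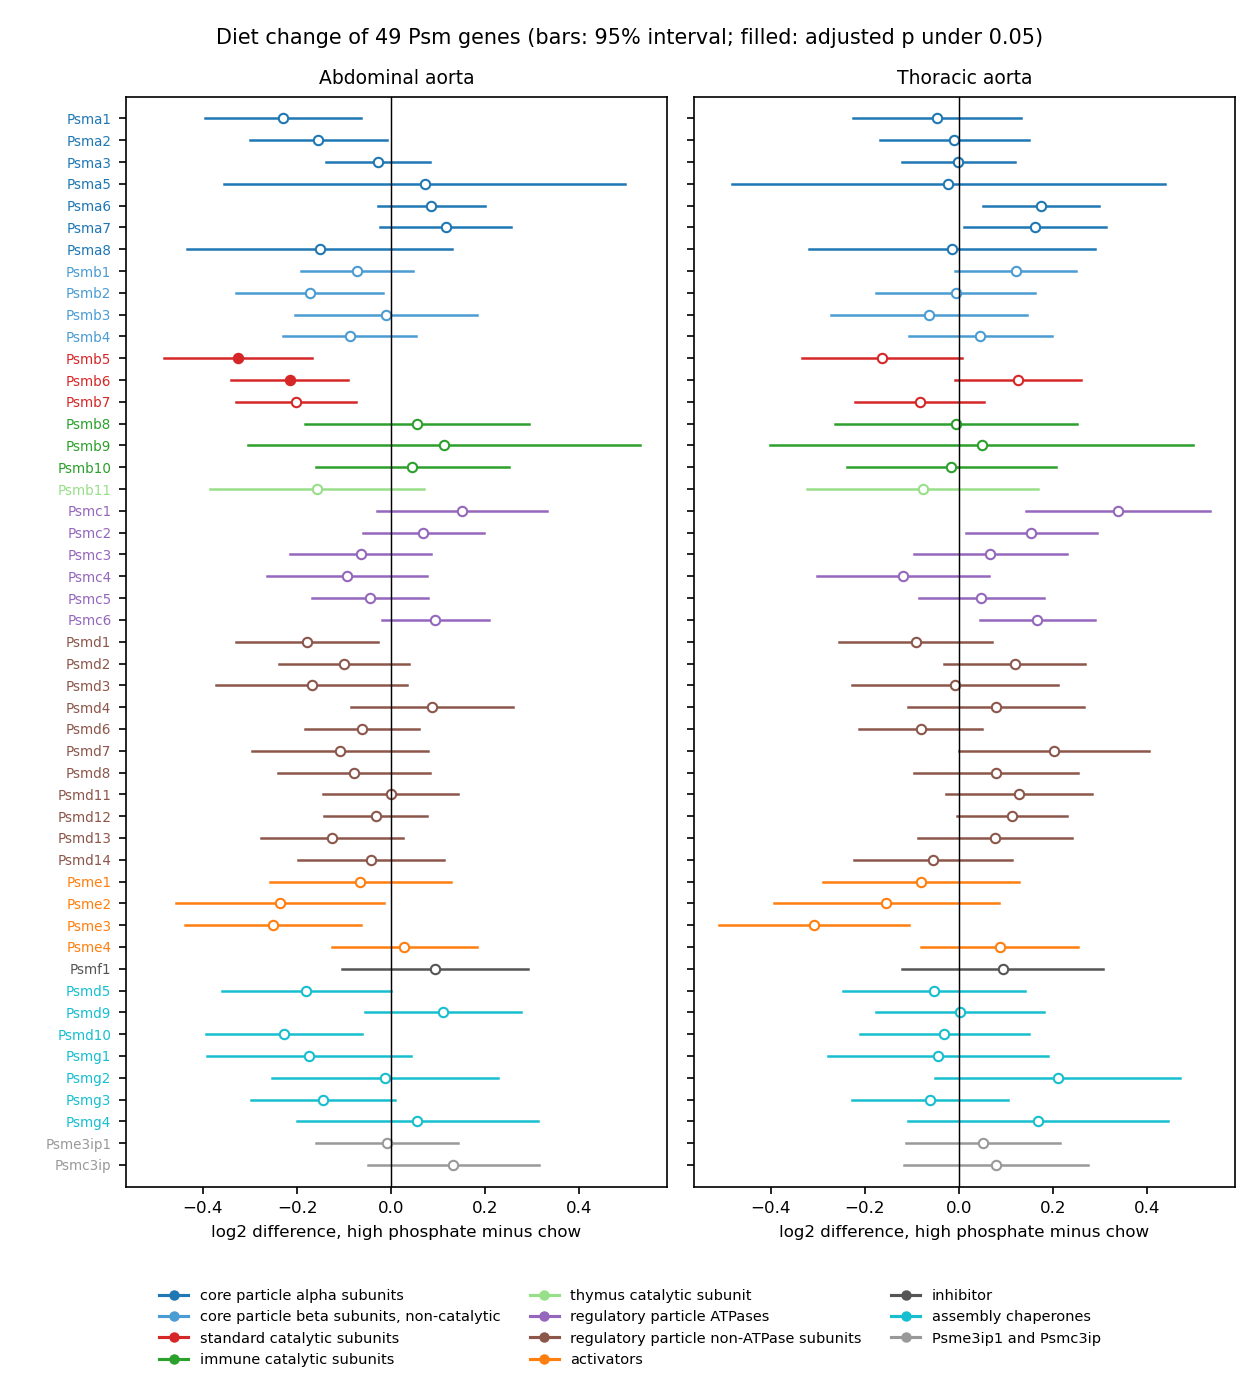
Log2 difference, HPD minus SCD, of each of the 49 genes (rows, coloured by role) in abdominal (left) and thoracic aorta (right), as limma estimates with 95% intervals. Filled points passed an adjusted p under 0.05: Psmb5 and Psmb6 in abdominal aorta, and none in thoracic aorta.

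The calls in abdominal aorta moved with other tissue markers and with single arrays. The mean of 11 of 12 listed brown adipocyte markers was 7 to 7.52 on HPD and 8.46 to 8.92 on SCD, and that of 8 fibroblast markers 8.23 to 8.43 on HPD and 8.99 to 9.27 on SCD. In bulk tissue, fewer cells of a type and less RNA per cell cannot be told apart. With the brown adipocyte mean as a covariate, 0 members and 0 of all genes were called in this contrast, and Psmb5 stood at -0.54 (adjusted p = 0.562). That mean does not overlap between the diets, so it and the diet cannot be told apart well in this fit. Without the 5 arrays rich in lymphocyte markers, which leaves 1 HPD and 2 SCD abdominal arrays, Psmb5 stood at -0.27 (adjusted p = 0.52) and 0 members were called. With the lymphocyte mean as a covariate Psmb5 stayed called (-0.29, adjusted p = 0.0397) and Psmb6 did not (-0.20, adjusted p = 0.0859). Leaving out single arrays gave 0 to 4 called members, with 0 without abdominal SCD array 1 and 4 without thoracic HPD array 1. The share of all genes called in those fits is not given, so these moves are not shown to be particular to the members. Psmb5 stayed called in 14 of 15 such fits, with an adjusted p of 0.0564 without abdominal SCD array 1. Psmb6 stayed called in 7 of 15 and was lost without abdominal HPD array 1, 2 or 4, any abdominal SCD array or thoracic SCD array 1.

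None of the immune subunits was called in this contrast. Psmb8 (probe set 17336446) had 7.55, 7.72, 7.24 and 7.47 on HPD, against 7.21, 7.55, 7.31 and 7.7 on SCD. Psmb9 (probe set 17343789) had 8.24, 7.96, 7.38 and 7.78 on HPD, against 7.34, 8.07, 7.36 and 8.14 on SCD. Psmb10 (probe set 17512554) had 8.12, 8.05, 7.82 and 8 on HPD, against 7.78, 7.89, 7.89 and 8.25 on SCD. For all 3 the diets overlapped, and arrays of 1 diet differed more than the diets' means. The differences were 0.05 ± 0.112 for Psmb8, 0.11 ± 0.195 for Psmb9 and 0.04 ± 0.096 for Psmb10 (adjusted p = 0.846, 0.812 and 0.856). The activator subunits Psme1 and Psme2, which form a cap induced by interferon, were not called either. Psme1 had 9.29, 9.22, 8.87 and 9.08 on HPD, against 9.22, 9.16, 9.02 and 9.32 on SCD. Psme2 had 7.37, 7.32, 7.25 and 7.21 on HPD, against 7.79, 7.42, 7.23 and 7.66 on SCD, a difference of -0.24 ± 0.104 (adjusted p = 0.214).

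**Figure D2:**
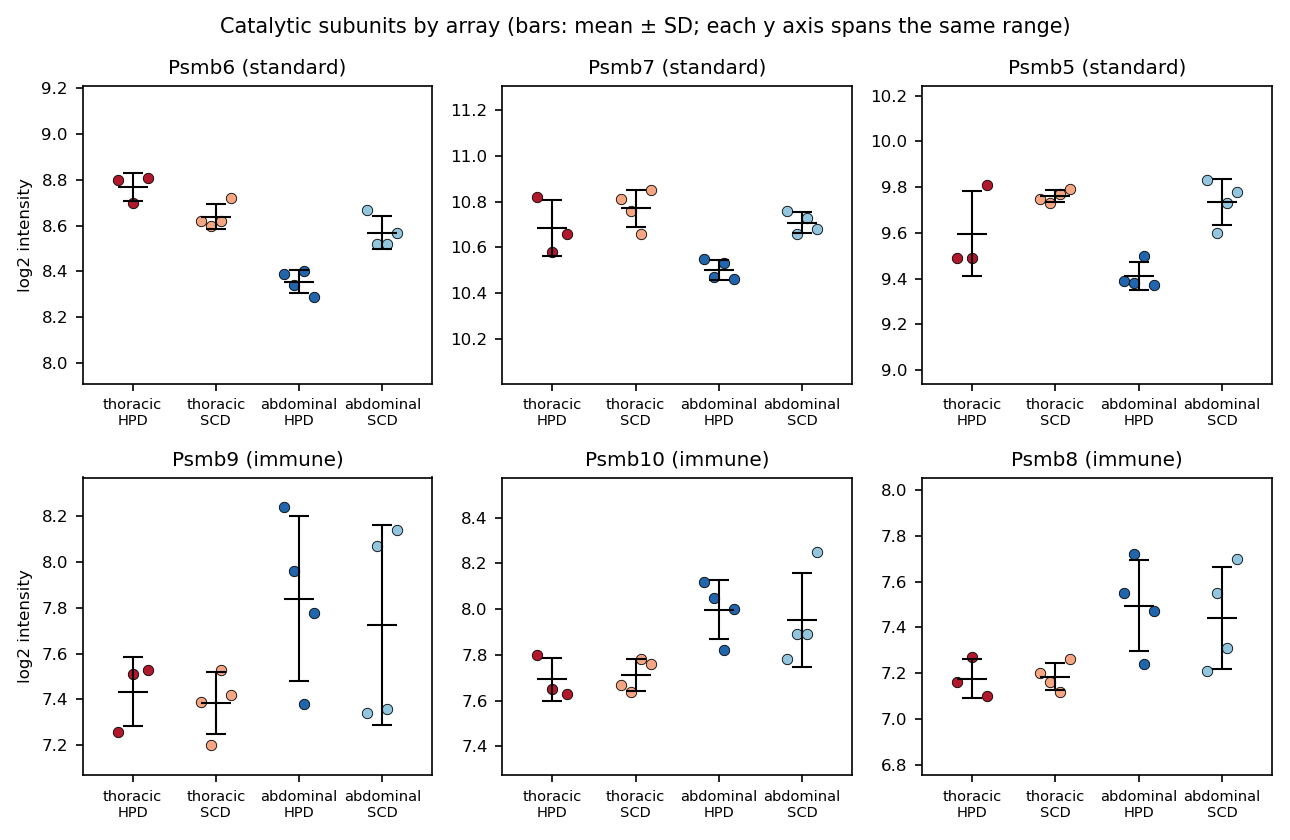
Log2 intensity of the standard catalytic subunits (top) and the immune subunits (bottom), 1 point per array, by segment and diet, with mean ± SD. Psmb5, Psmb6 and Psmb7 separate the diets in abdominal aorta, though Psmb7 was not called. Psmb8, Psmb9 and Psmb10 overlap between diets and spread most among abdominal arrays. The share of all genes that separate in this way was not counted.

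In thoracic aorta no member was called in either direction by limma, beside 1.39% of all genes called higher and 1.08% called lower. At an unadjusted p under 0.05 there were 5 members higher and 1 lower. Of all 22180 genes 1564 were higher and 1487 lower (13.8% in either direction). The median difference of the members was 0.00, with 24 of 49 below 0. Psmb5 had 9.49, 9.49 and 9.81 on HPD, against 9.75, 9.73, 9.77 and 9.79 on SCD. Arrays 1 and 2 were low and array 3 was level with SCD, and the difference was -0.16 ± 0.08 (adjusted p = 0.381). Psmb6 had 8.8, 8.7 and 8.81 on HPD, against 8.62, 8.6, 8.62 and 8.72 on SCD, a difference of 0.13 ± 0.063 (adjusted p = 0.41). Psmb7 had 10.82, 10.58 and 10.66 on HPD, against 10.81, 10.76, 10.66 and 10.85 on SCD, a difference of -0.08 ± 0.065 (adjusted p = 0.656). The differences of the immune subunits were small, 0.05 ± 0.211 for Psmb9, -0.02 ± 0.104 for Psmb10 and -0.01 ± 0.12 for Psmb8 (adjusted p of 0.966, 0.975 and 0.99). The 95% interval lay within 0.5 either way for 47 of 49 members, and the 2 exceptions were the member with the highest difference and the one with the lowest. These were Psmc1, an ATPase, at 0.34 ± 0.092 (adjusted p = 0.0691, called without thoracic SCD array 3) and Psme3, the nuclear activator, at -0.31 ± 0.095 (adjusted p = 0.111).

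Averaged over both segments, 3 members (6.12%) rose and 2 (4.08%) fell on HPD, beside 4.53% of all genes higher and 6.18% lower. The average reuses the arrays of both diet comparisons and is no independent evidence. Psmc1 rose by 0.24 ± 0.062 (adjusted p = 0.0188). It lay at 9 to 9.28 on HPD and 8.61 to 8.96 on SCD in thoracic aorta, which did not overlap, and at 8.97 to 9.21 on HPD and 8.85 to 9.03 on SCD in abdominal aorta, which did. Psmc6, another ATPase, and Psma6, an alpha subunit, each rose by 0.13 ± 0.039 (adjusted p = 0.0467 and 0.0472). In thoracic aorta Psmc6 lay at 9.94 to 10.05 on HPD and 9.8 to 9.86 on SCD, and Psma6 at 10.22 to 10.33 on HPD and 10.06 to 10.1 on SCD, without overlap. In abdominal aorta the diets overlapped, with Psmc6 at 9.79 to 9.92 on HPD and 9.72 to 9.87 on SCD, and Psma6 at 9.92 to 10.11 on HPD and 9.88 to 10 on SCD. With the replicate block neither was called (adjusted p = 0.0789 for Psmc6 and 0.0699 for Psma6). Psme3 fell by 0.28 ± 0.065 (adjusted p = 0.0101). It lay at 6.55 to 6.59 on HPD and 6.75 to 6.96 on SCD in thoracic aorta, and at 6.38 to 6.75 on HPD and 6.72 to 7 on SCD in abdominal aorta. Psmb5 fell by 0.24 ± 0.054 (adjusted p = 0.00788), and Psmb7, at -0.14 ± 0.044, lay just past the threshold (adjusted p = 0.0502). Without the 5 arrays rich in lymphocyte markers none of them was called. That fit keeps 1 HPD and 2 SCD abdominal arrays. Its averages were 0.31 for Psmc1, 0.18 for Psmc6, 0.15 for Psma6, -0.21 for Psme3 and -0.22 for Psmb5. With the brown adipocyte mean as a covariate 0 members were called. The averages there were 0.22 for Psmc1, 0.22 for Psmc6, 0.30 for Psma6, -0.21 for Psme3 and -0.42 for Psmb5. The brown adipocyte mean was 7.68 to 8.29 on HPD and 8.88 to 9.14 on SCD in thoracic aorta. It overlapped between the diets in neither segment, so it and the diet cannot be told apart well in that fit. With any single array left out Psmb5 and Psme3 stayed called, Psmc1 was lost only without thoracic HPD array 1, and Psma6 and Psmc6 stayed called in 2 of 15 fits each.

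No member's diet change differed between the segments by limma's test of the difference, nor did that of any gene (0% of all genes called). At an unadjusted p under 0.05, the diet change of 4 members was lower in abdominal than in thoracic aorta and that of 0 higher. Of all 22180 genes 806 were lower and 411 higher (5.49% in either direction). Psmb6 had the most negative difference among members, -0.34 ± 0.086, with a diet change of -0.22 in abdominal and 0.13 in thoracic aorta (unadjusted p = 0.00126, adjusted p = 0.773). The median over the members was -0.09, against -0.01 over all genes.

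Between segments on HPD, 4 members (8.16%) were higher in thoracic than in abdominal aorta and 0 were lower, beside 7.57% of all genes called higher and 6.25% called lower. Psmb6 had 8.8, 8.7 and 8.81 in thoracic aorta, against 8.39, 8.34, 8.4 and 8.29 in abdominal aorta. The segments did not overlap, and Psmb6 was 0.41 ± 0.063 higher in thoracic aorta (adjusted p = 0.000962), 1.33-fold. Psmd8, a non-ATPase subunit, lay at 9.74 to 9.9 in thoracic and 9.35 to 9.7 in abdominal aorta and was higher by 0.37 ± 0.081 (adjusted p = 0.00845). Psma6 lay at 10.22 to 10.33 in thoracic and 9.92 to 10.11 in abdominal aorta, higher by 0.23 ± 0.058 (adjusted p = 0.0158). Psmg1, a chaperone of alpha ring assembly, lay at 8.32 to 8.56 in thoracic and 7.77 to 8.31 in abdominal aorta, higher by 0.35 ± 0.11 (adjusted p = 0.0474). Of the 49 members 37 lay above 0, with a median of 0.11, against 0.04 over all genes. The lowest values were those of the immune subunits.

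**Figure D3:**
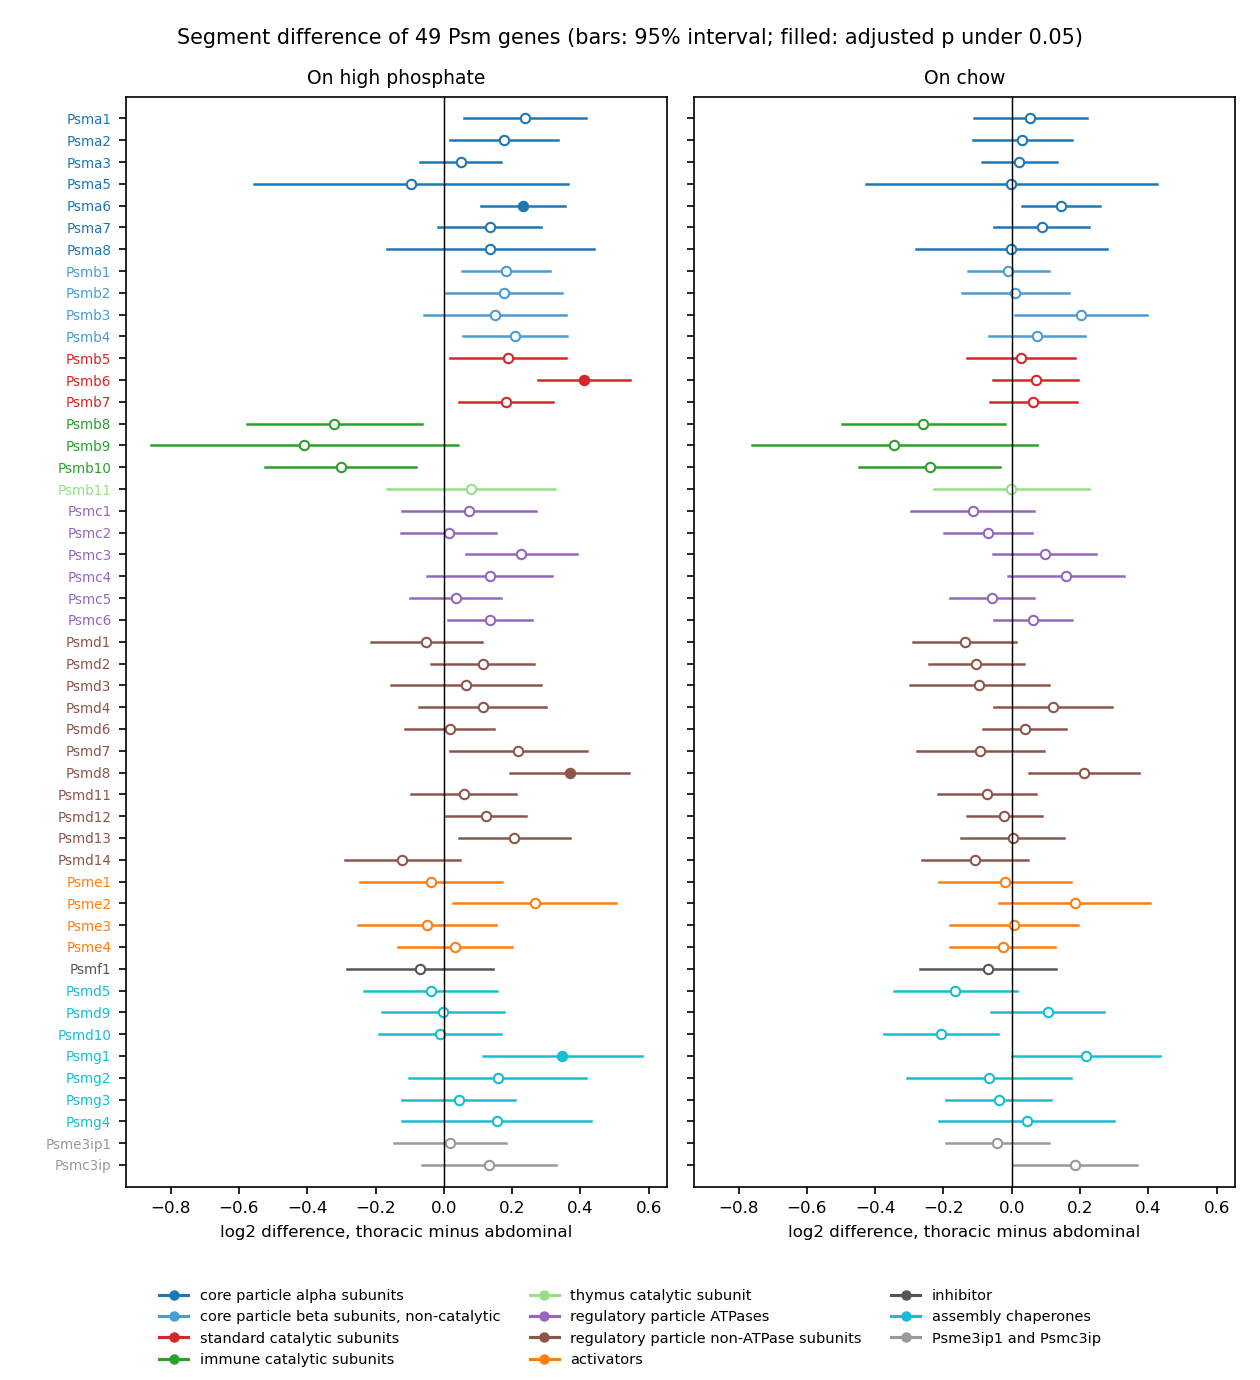
Log2 difference, thoracic minus abdominal, of each of the 49 genes (rows, coloured by role) on HPD (left) and SCD (right), as limma estimates with 95% intervals. Filled points passed an adjusted p under 0.05: Psmb6, Psmd8, Psma6 and Psmg1 on HPD, and none on SCD.

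These segment differences stand beside differences in markers of the aorta's own and of other cells. The mean of 8 smooth muscle markers was 9.28 to 9.5 in thoracic and 8.2 to 8.91 in abdominal aorta on HPD, with 8 of 8 called higher in thoracic aorta (median difference 0.97). On HPD 5 of 8 fibroblast markers and 5 of 11 brown adipocyte markers were also called higher in thoracic aorta. Mean levels of 8 cardiac muscle markers were 8.02 to 8.79 in thoracic and 6.01 to 6.34 in abdominal arrays. Those of 8 of 9 listed sympathetic neuron and chromaffin markers were 5.89 to 7.31 in thoracic and 8.37 to 9.92 in abdominal arrays. The part of the smooth muscle, fibroblast, cardiac and sympathetic lists in the members' differences was not tested. With the brown adipocyte mean as a covariate 0 members were called. With the lymphocyte mean as a covariate, Psmb6 remained called (0.36, adjusted p = 0.0435) and was the only called member. The brown adipocyte mean was 7.68 to 8.29 in thoracic and 7 to 7.52 in abdominal aorta on HPD. The lymphocyte mean did not overlap between the segments on HPD either. Neither mean can be told apart well from the segment in these fits. Without the 5 arrays rich in lymphocyte markers 0 members were called and Psmb6 stood at 0.37 (adjusted p = 0.151). Leaving out single arrays gave 2 called members without thoracic HPD array 1, 7 without thoracic HPD array 2 and 8 without abdominal HPD array 3. The share of all genes called is not given beside these counts or those of the covariate fits. Their moves are therefore not shown to be particular to the members. Psmb6 and Psmd8 stayed called in all 15 fits that left out an array, Psma6 in all but that without thoracic HPD array 1, and Psmg1 in 3 of 15.

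Between segments on SCD no member was called by limma, beside 1.76% of all genes called higher in thoracic aorta and 3.02% called lower. At an unadjusted p under 0.05 there were 5 members higher and 3 lower. Of all 22180 genes 2276 were higher and 2035 lower (19.4% in either direction). The members' median was 0.00, against 0.03 over all genes. Psmb6 had 8.62, 8.6, 8.62 and 8.72 in thoracic aorta, against 8.67, 8.52, 8.52 and 8.57 in abdominal aorta, which overlapped (0.07 ± 0.058, adjusted p = 0.543). Psmd8 lay at 9.7 to 9.81 in thoracic and 9.43 to 9.65 in abdominal aorta, which did not (0.21 ± 0.075, adjusted p = 0.131).

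The immune subunits were lower in thoracic than in abdominal aorta on average, but none passed the threshold. On HPD, Psmb8 had 7.16, 7.27 and 7.1 in thoracic aorta, against 7.55, 7.72, 7.24 and 7.47 in abdominal aorta (-0.32 ± 0.12, adjusted p = 0.0926). Psmb9 had 7.26, 7.51 and 7.53 in thoracic aorta, against 8.24, 7.96, 7.38 and 7.78 in abdominal aorta (-0.41 ± 0.211, adjusted p = 0.222). Psmb10 had 7.8, 7.65 and 7.63 in thoracic aorta, against 8.12, 8.05, 7.82 and 8 in abdominal aorta (-0.30 ± 0.104, adjusted p = 0.0672). Abdominal HPD array 3 was level with thoracic arrays for Psmb8 and Psmb9 and close to them for Psmb10. On SCD the differences were -0.26 ± 0.112, -0.34 ± 0.195 and -0.24 ± 0.096 for Psmb8, Psmb9 and Psmb10 (adjusted p = 0.217, 0.353 and 0.182). Thoracic SCD arrays had 7.2, 7.16, 7.12 and 7.26 for Psmb8, then 7.39, 7.2, 7.53 and 7.42 for Psmb9, and 7.67, 7.64, 7.78 and 7.76 for Psmb10.

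Array by array, the immune subunits were high where T, NK and B cell markers were high. In the 5 abdominal arrays with a marker mean over 7, Psmb9 lay at 7.78 to 8.24, against 7.34 to 7.38 in the other 3 abdominal arrays, with 7.2 to 7.53 in thoracic arrays. Psmb8 lay at 7.47 to 7.72 in the 5, against 7.21 to 7.31 in the other 3 and 7.1 to 7.27 in thoracic arrays. Psmb10 lay at 7.89 to 8.25 in the 5, against 7.78 to 7.89 in the other 3 and 7.63 to 7.8 in thoracic arrays. Psme1, at 9.08 to 9.32 in the 5 and 8.87 to 9.22 in the other 3, overlapped, as did the standard subunits. Psme2 overlapped too, at 7.21 to 7.66 in the 5, 7.23 to 7.79 in the other 3 and 7.43 to 7.76 in thoracic arrays. Its mean was higher in thoracic than in abdominal aorta, unlike the immune subunits, at 7.55 against 7.29 on HPD and 7.71 against 7.53 on SCD. It was not called in either segment comparison. Glycam1, made by vessels of lymph nodes, was 12.59 to 12.78 in the 5 arrays and 12.2, 12.17 and 8.95 in the other abdominal ones, against 6.28 to 6.76 in thoracic arrays. With the lymphocyte mean as a covariate the HPD segment difference of Psmb8 was 0.04, that of Psmb9 0.27 and that of Psmb10 -0.03. On HPD that mean was 5.57 to 5.78 in thoracic and 6.06 to 8.18 in abdominal arrays, without overlap. It and the segment cannot be told apart well in this fit, and the part of lymphocytes was not tested. On HPD, Psmb8 and Psmb10 were called lower in thoracic aorta with array weights (adjusted p = 0.0274 and 0.02). So they were without the 2 hepatocyte-rich arrays (0.0276 and 0.0406) and without abdominal HPD array 3 (0.0255 and 0.0272). Both omissions drop array 3, the lowest of its group for both genes, so a larger difference was fixed in advance. Without the hepatocyte-rich arrays, abdominal HPD arrays 1 and 2 remain, with lymphocyte means of 8.18 and 8.17. Psmb10 was also called without abdominal SCD array 4 (adjusted p = 0.0233).

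**Figure D4:**
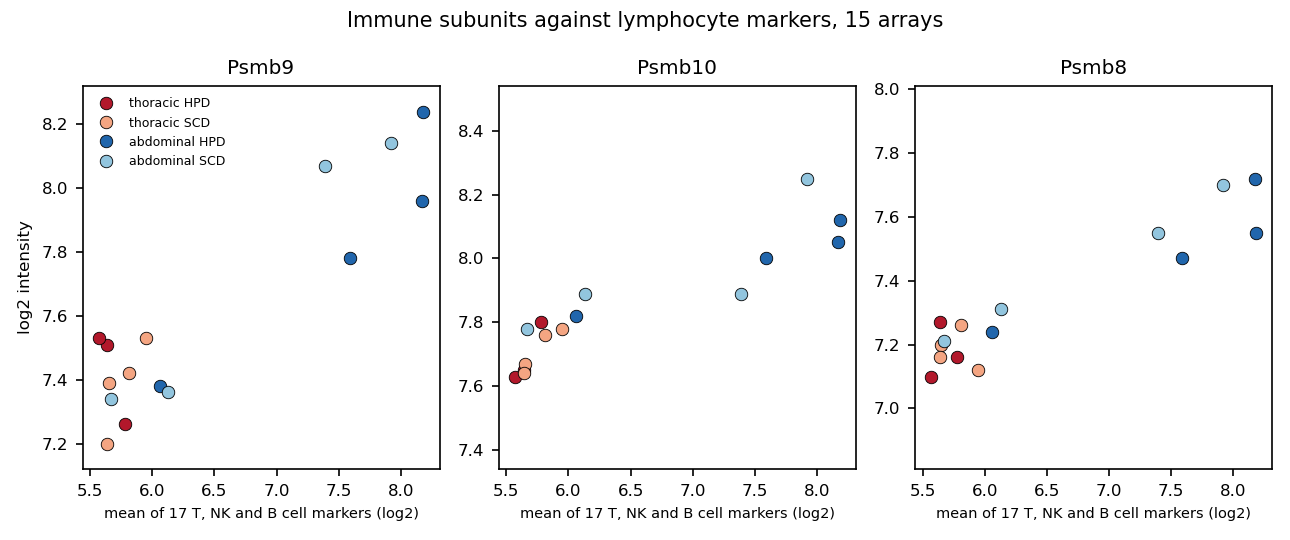
Log2 intensity of Psmb9, Psmb10 and Psmb8 against the mean log2 level of 17 T, NK and B cell markers, 1 point per array, coloured by segment and diet. The 5 abdominal arrays over 7 on the x axis hold the highest values of each subunit, and for Psmb10 the lowest of the 5, at 7.89, ties with another abdominal array.

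Immune and standard subunits were also compared within each array, as the log2 level of the immune subunit minus that of the subunit it replaces. Only changes of this difference between groups have a meaning, since levels of different probe sets are not comparable. On HPD, Psmb10 minus Psmb7 was -2.99 ± 0.0568 in thoracic aorta (SD, n = 3) and -2.51 ± 0.139 in abdominal aorta (SD, n = 4). The segments did not overlap, at -0.48 (two-sided exact permutation test, p = 0.0286, the smallest this design allows, and 0.196 adjusted over 12 tests). Psmb9 minus Psmb6 was -1.34 ± 0.181 in thoracic and -0.52 ± 0.369 in abdominal aorta, also without overlap (exact permutation p = 0.0571, adjusted p = 0.196). Psmb8 minus Psmb5 was -2.42 ± 0.256 in thoracic and -1.91 ± 0.255 in abdominal aorta, with overlap (exact permutation p = 0.0857, adjusted p = 0.196).

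For the diet in abdominal aorta the 3 differences rested on overlapping groups. Psmb9 minus Psmb6 was -0.52 ± 0.369 on HPD and -0.84 ± 0.471 on SCD (exact permutation p = 0.257, adjusted p = 0.343). Psmb10 minus Psmb7 was -2.51 ± 0.139 on HPD and -2.75 ± 0.235 on SCD (exact permutation p = 0.114, adjusted p = 0.196). Psmb8 minus Psmb5 was -1.91 ± 0.255 on HPD and -2.29 ± 0.273 on SCD (exact permutation p = 0.114, adjusted p = 0.196). The diet moved the 3 differences by 0.16, -0.08 and 0.07 in thoracic aorta for Psmb8 minus Psmb5, Psmb9 minus Psmb6 and Psmb10 minus Psmb7. Adjusted p-values over the 12 tests ran between 0.196 and 0.571, so no shift of immune against standard subunits passed the threshold. Psmb10 minus Psmb7 between segments on HPD reached the smallest exact permutation p possible, 0.0286, and still had an adjusted p of 0.196. With so few arrays a single shift could not pass by itself, so these tests cannot show that no shift occurred.

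**Figure D5:**
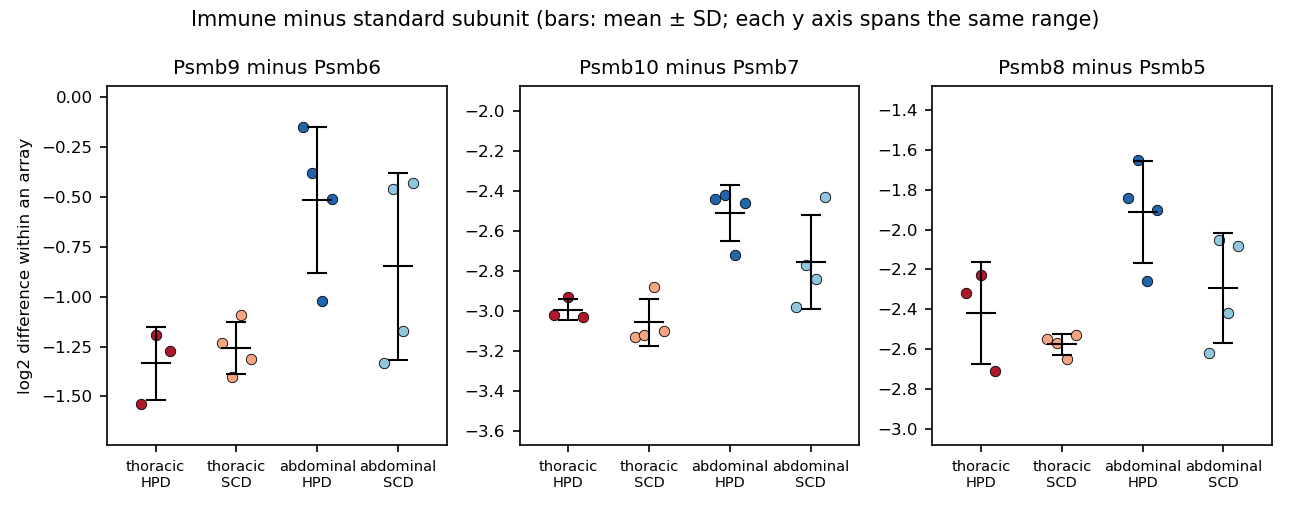
Log2 intensity of an immune subunit minus that of the standard subunit it replaces, 1 point per array, by segment and diet, with mean ± SD. Abdominal arrays on HPD lie highest on average in all 3 panels, and on HPD the segments do not overlap for Psmb9 minus Psmb6 and Psmb10 minus Psmb7.

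Genes that act with the proteasome under other symbols were taken as lists. Of 8 measured proteasome genes (12 listed), 1 was called higher on HPD than on SCD in thoracic aorta, and on average 1 was higher and 1 lower. Of all genes 1.39% were called higher in that thoracic comparison, and on average 4.53% higher and 6.18% lower. Uchl5, a deubiquitinase of the regulatory particle, had 9.64, 9.44 and 9.46 in thoracic aorta on HPD, against 9.24, 9.15, 9.21 and 9.17 on SCD. The groups did not overlap and Uchl5 rose by 0.32 ± 0.066 (adjusted p = 0.0193). Sem1, a small regulatory subunit, fell by 0.21 ± 0.05 on average (adjusted p = 0.0124), with 9.1, 9.07, 9.11 and 9.08 on HPD in abdominal aorta, against 9.37, 9.3, 9.32 and 9.3 on SCD. The list's median differences were -0.02 in abdominal and 0.05 in thoracic aorta.

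Among 9 measured of 10 genes that control transcription of the proteasome, Nfe2l1 fell by 0.26 ± 0.062 in abdominal aorta on HPD (adjusted p = 0.0193). It had 8.54, 8.45, 8.52 and 8.4 on HPD, against 8.76, 8.78, 8.76 and 8.63 on SCD, without overlap. Foxo3, a transcription factor that drives protein breakdown in wasting muscle, rose by 0.36 ± 0.081 on average (adjusted p = 0.00879). No other member of the list was called in a diet comparison, and Maf, a transcription factor, was lower in thoracic than in abdominal aorta on HPD (-0.55 ± 0.165, adjusted p = 0.0392).

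Of 9 measured of 15 genes of ubiquitin supply and shuttling, Sqstm1, a receptor that carries ubiquitin-tagged cargo, rose by 0.31 ± 0.06 in thoracic aorta on HPD (adjusted p = 0.0136). It had 8.57, 8.54 and 8.64 on HPD, against 8.23, 8.29, 8.27 and 8.29 on SCD. On average Ubqln4, a shuttle to the proteasome, fell by 0.28 ± 0.066 (adjusted p = 0.0124). Uba6, which activates ubiquitin, was lower in thoracic than in abdominal aorta on HPD (-0.31 ± 0.099, adjusted p = 0.0492) and on SCD (-0.34 ± 0.091, adjusted p = 0.0478). Of 6 measured of 7 ubiquitin ligases of fasting muscle, Fbxo30 fell by 0.48 ± 0.134 in abdominal aorta on HPD (adjusted p = 0.0416). Its level was higher in thoracic than in abdominal aorta, by 1.02 ± 0.144 on HPD and 0.86 ± 0.134 on SCD (adjusted p = 0.000524 and 0.00165). Fbxo32, the ligase atrogin, was higher in thoracic aorta on HPD by 0.38 ± 0.118 (adjusted p = 0.0448).

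Of 10 genes of MHC class I antigen processing, Calr, a chaperone of the peptide-loading complex, fell by 0.45 ± 0.089 in abdominal aorta on HPD (adjusted p = 0.00551). It had 9.03, 8.98, 8.75 and 8.91 on HPD, against 9.42, 9.31, 9.31 and 9.44 on SCD, without overlap. Pdia3, which works beside it, fell by 0.17 ± 0.038 on average (adjusted p = 0.0074). Tap1, which carries proteasome products into the endoplasmic reticulum, had 7.07, 7.54 and 7.28 in thoracic aorta on HPD, against 8.31, 8.36, 7.53 and 8.01 in abdominal aorta (-0.76 ± 0.227, adjusted p = 0.0379). Among abdominal HPD arrays Tap1 was lowest in array 3, as were the immune subunits. None of 16 measured of 18 interferon response genes was called by limma in either segment's diet comparison, with 1 lower at an unadjusted p under 0.05 in each, and 3 were lower in thoracic aorta on HPD, beside 6.25% of all genes. Irf8, a transcription factor of B and myeloid cells, had 6.51, 6.83 and 6.31 in thoracic aorta on HPD, against 9.14, 8.94, 6.86 and 8.32 in abdominal aorta (-1.77 ± 0.52, adjusted p = 0.0349). Gbp4, a guanylate-binding protein, differed by -1.10 ± 0.27 (adjusted p = 0.0148), and Stat2, a signal carrier of type I interferon, by -0.36 ± 0.115 (adjusted p = 0.0488). With the lymphocyte mean as a covariate the HPD segment differences were 0.07 for Irf8, -0.33 for Gbp4 (adjusted p = 0.607), -0.10 for Stat2 (adjusted p = 0.812) and -0.03 for Tap1 (adjusted p = 0.961). That mean does not overlap between the segments on HPD, so it and the segment cannot be told apart well in this fit.

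Calls in these lists depended on single arrays to different degrees. The diet averages of Nfe2l1, Foxo3, Uchl5, Sem1, Sqstm1, Ubqln4, Calr, Pdia3 and Fbxo30 and the abdominal diet change of Calr stayed called in all 15 fits that left out an array. With the brown adipocyte covariate none of them was called. The averages were smaller for Nfe2l1 (-0.00346), Sem1 (-0.025), Pdia3 (-0.035), Foxo3 (0.11) and Sqstm1 (0.18). They were larger in size for Uchl5 (0.53) and Calr (-0.53), and turned positive for Fbxo30 (0.291) and Ubqln4 (0.0254). That covariate overlaps between the diets in neither segment, so it and the diet cannot be told apart well in this fit. Without the 5 lymphocyte-rich arrays the averages were -0.20 for Nfe2l1, 0.39 for Foxo3 and -0.21 for Sem1. They were -0.21 for Pdia3, -0.35 for Ubqln4 and -0.40 for Fbxo30. The abdominal change of Calr was -0.62 there, and the thoracic changes of Sqstm1 and Uchl5 were 0.31 and 0.32. None of these was called in that fit, which keeps 1 HPD and 2 SCD abdominal arrays. With the lymphocyte covariate the abdominal change of Fbxo30 and the HPD segment differences of Maf, Uba6 and Fbxo32 were not called, nor were the SCD ones of Stat2 and Uba6. On HPD this covariate does not overlap between the segments, which limits what the fit can separate. In abdominal aorta Nfe2l1 stayed called in 10 of 15 and Fbxo30 in 6 of 15. In thoracic aorta Sqstm1 stayed called in 13 of 15 (lost without HPD array 3 or SCD array 1) and Uchl5 in 12 of 15 (lost without HPD array 1 or SCD array 2 or 4). Between segments on HPD, Fbxo30 stayed called in 15, Gbp4 in 14, Maf in 10, Irf8 and Tap1 in 9, Fbxo32 in 5, Stat2 in 4 and Uba6 in 3 of 15. On SCD, Fbxo30 stayed called in 15, Stat2, at -0.45 ± 0.107 (adjusted p = 0.0257), in 11 and Uba6 in 5 of 15.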

How the data were processed

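Total RNA was labelled with biotin after amplification (NuGEN Applause WT-Amp Plus ST, per the labels). The deposited table gives a log2 intensity for each probe set on each array. RMA and Partek are named in the submitters' processing notes, with no version or role. The log base is not stated there and was inferred from the range, 1.381 to 13.33. No raw scans or detection calls were used here, so signal over background is unknown, and the number of arrays limits precision.

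Of 41345 probe sets 23521 name 1 gene, and the brightest per gene left 22180 genes. A linear model of 4 group means was fitted to all of them in R 4.3.3 by limma 3.58.1, with a variance prior that follows the mean level and 11 residual degrees of freedom. It gave 6 contrasts with Benjamini-Hochberg adjustment over all genes, two-sided. Within-array differences were tested by exact permutation (Python 3.11.15). Tables were handled with pandas 2.3.3 and version 1.17.8 of data.table, and plots drawn with matplotlib 3.10.9. The pipeline was tested on simulated data. Any member could be named, and of each list up to 6 called genes by smallest p. The members and lists were chosen with earlier results of these data known. Alternatives were the variance prior, a filter on dim genes, only the groups compared, quantile normalization, array weights, a replicate block, averaging a gene's probe sets, lymphocyte and brown adipocyte covariates, and leaving out arrays. Of 49 members 3 have another probe set.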

Additional observations from a re-analysis of the deposited data

Results flagged for a closer look

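In 156 groups of 4 arrays (the 3 thoracic HPD arrays were not tested), 12 held an array far from the other 3, where chance gives about 7.8. Abdominal HPD array 3 was high for Psmb5, at 9.5 against 9.37 to 9.39 in the others, low for Psmd9, at 6.58 against 6.74 to 6.76, and low for Psmb10 minus Psmb7, at -2.72 against -2.46 to -2.42. Abdominal HPD array 4 was low for Psmg2, at 7.81 against 8.19 to 8.26. Abdominal SCD array 1 was high for Psmd7, at 9.03 against 8.73 to 8.78, and abdominal SCD array 2 for Psmc6, at 9.87 against 9.72 to 9.74. Thoracic SCD array 2 was low for Psma6, at 10.06 against 10.1, for Psmd14, at 8.56 against 8.67 to 8.69, and for Psmc3ip, at 5.89 against 6.22 to 6.23. Thoracic SCD array 3 was low for Psme3ip1, at 7.82 against 8.0 to 8.03, high for Psmg2, at 8.31 against 7.98 to 7.99, and high for Psmb10 minus Psmb7, at -2.88 against -3.13 to -3.1.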

How the results depend on the processing

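Counts of called members among 49 depended on the setting. They are given without the share of all genes called in each fit. A change of these counts is therefore not shown to be particular to the members. In the abdominal diet comparison (2 called) there was 1 with a variance prior without trend, with only the groups compared, with the lymphocyte mean as a covariate and without the 2 arrays with hepatocyte markers, and 0 without the 5 arrays with high lymphocyte markers and with the brown adipocyte mean as a covariate. In the diet average (5 called) there were 3 without trend and without the hepatocyte arrays, and 0 without the 5 arrays and with the brown adipocyte covariate. In the HPD segment comparison (4 called) there were 2 with only the groups compared, 8 with array weights, 1 with the lymphocyte covariate, and 0 without the 5 arrays and with the brown adipocyte covariate. Leaving out single arrays gave 0 to 4, 3 to 5 and 2 to 8 in these comparisons, and 0 to 1 in the thoracic diet comparison. Array weights and the replicate block each gave 1 called member, Psmc1, in the thoracic diet comparison (0 called). The replicate block changed no other count by over 1.5 times. Between segments, deviations of same-numbered arrays from their group means correlated at 0.0308 to 0.122 on HPD and 0.0295 to 0.0691 on SCD. Over all pairs of groups the range was -0.25 to 0.404, and both ends came from abdominal HPD against abdominal SCD arrays. Same-numbered arrays were not treated as pairs, which does not show that the samples are unpaired.

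Some directions turned. With the lymphocyte covariate the HPD segment difference was 0.0735 for Irf8, 0.0399 for Psmb8 and 0.273 for Psmb9, and the SCD one of Psmb9 was 0.0335. Without the 5 arrays Psmb9 stood at 0.0532 on HPD and 0.033 on SCD. With the brown adipocyte covariate the abdominal diet difference was 0.342 for Fbxo30 and 0.000292 for Psmb7, the average 0.291 for Fbxo30 and 0.0254 for Ubqln4, and the HPD segment difference 0.44 for Psmb9 and 0.000864 for Tap1. Without thoracic HPD replicate 1, Psmb9 minus Psmb6 moved by 0.024 in the thoracic diet comparison. The cause of these changes was not tested. Over single array omissions the immune minus standard differences ran between 0.166 and 0.497, 0.172 and 0.356, and 0.272 and 0.496 for the abdominal diet, and between -0.149 and 0.024, 0.035 and 0.126, and 0.061 and 0.303 for the thoracic diet (Psmb9, Psmb10 and Psmb8 pairs in turn). They ran between -0.988 and -0.698, -0.553 and -0.454, and -0.623 and -0.362 for segments on HPD, and between -0.575 and -0.274, -0.379 and -0.195, and -0.393 and -0.206 on SCD.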
